A study of Mus musculus with 6 samples.

Results

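The 9 genes described here are Irf8 and 8 genes of monocytes, macrophages and dendritic cells, namely Csf1r, Mpeg1, Ly86, Aoah, Mefv, Clec10a, Ccr2 and Cx3cr1. They were found on the arrays through the RefSeq accession of each probe. The 9 genes have 15 of the 55681 probes and are 9 of the 20284 genes that could be named. Where a gene had several probes, the brightest was taken. They were chosen with earlier results of these data known, so their place among all genes is a description.

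The study compared mouse KSL cells, the c-Kit+ Sca1+ lineage-negative fraction that holds the hematopoietic stem cells, with and without a working Tif1b gene. Tif1b, named Trim28 in the reference, encodes a corepressor that takes part in chromatin silencing. All mice were of C57BL6 background, in both genotypes. The fetal liver cells carried Tie2-Cre, with Tif1b w/w in WT and Tif1b f/f in KO, and gave 1 array of each genotype (FL WT, FL KO). The adult bone marrow cells carried CreERT, with Tif1b w/w in WT and Tif1b f/f in KO, and gave 2 arrays of each genotype (BM WT 1 and 2, BM KO 1 and 2). Tie2-Cre is driven by a promoter active in endothelial and blood-forming cells, and CreERT is a form of Cre that needs a ligand to act. Tissue and Cre driver therefore changed together and cannot be told apart. The labels give neither the age of the animals nor whether replicates were taken from different animals, and p-values may then measure only technical spread. The genotype labels of both bone marrow replicate 2 samples read Tif2b. The descriptions of both bone marrow replicate 1 samples also name Hp1aKD (WT) or Hp1gKD (KO) c-Kit+ cells, against all their other labels.

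The values are log2 signals relative to each array's 75th percentile, so 1 unit is a 2-fold difference. The 75th percentile signal ranged from 211 to 743 over the 6 arrays, and 24383 to 31419 probes were well above background by the scanner's flag. Each slide held 1 WT and 1 KO array, giving 1 pair from fetal liver and 2 pairs from bone marrow. The tissues were thus on separate slides, so a slide effect cannot be told apart from a tissue difference. A probe's level was set only against the same probe on other arrays. The array labelled BM WT 1 stands apart. Its column in the authors' value table lay within 1% of its scan for 1.40% of probes, against 100% after rounding for each of the other 5 arrays. Kit in this sample was at 1.30 by the scan but 4.16 by the table, and lay between 4.17 and 4.50 on the other arrays. Results that use this sample are therefore given from both sources, called the scans and the table. Trim28 itself, the targeted gene, was at 5.97 in FL WT and 1.68 in FL KO. In bone marrow Trim28 was at 5.55 in WT 2, at 2.45 (scan) or 5.18 (table) in WT 1, and at 1.28 and 0.75 in KO. Whether its probe lies in the deleted part is not known here.

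IRF8 is a transcription factor of the interferon regulatory factor family. It binds DNA weakly alone and acts with partners such as PU.1 (Spi1), on elements that join an ETS site to an IRF site. In blood formation it directs progenitors towards monocytes and dendritic cells and away from neutrophils. Transcription of Irf8 is itself raised by interferon gamma through GAS elements. The other 8 genes encode receptors and innate immune proteins that monocytes, macrophages and dendritic cells use.

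Upstream sequence from RefSeq (build GRCm38.p6) was held for 7 of the 9 genes, and none was held here for Csf1r and Clec10a. The 250 bases before the annotated start were searched on both strands for 5 motifs. These were the ETS core GGAAG (in 64.1% of 32851 RefSeq promoter windows of this length), the PU-box core GAGGAA (23.3%), an ETS-IRF composite core GGAANNGAA (6.99%), the GAS element TTCNNNGAA (7.02%) and the ISRE core GAAANNGAA (7.13%). The first 3 of these motifs share the letters GGAA and can overlap, and a GAS match reads the same on both strands. The first Irf8 start is shown because it held 2 GAS matches, from 171 to 163 and from 153 to 145 bases before the start, and no match to the other 4 motifs. The starts of Mpeg1, Ly86, Aoah and Mefv are shown because these genes had the lowest bone marrow differences beside Irf8, and that of Ccr2 because it had almost none. Each sequence runs 5′ to 3′ on the gene's strand, and capitals mark the matches.
Irf8, chr8:120736108-120736357, plus strand: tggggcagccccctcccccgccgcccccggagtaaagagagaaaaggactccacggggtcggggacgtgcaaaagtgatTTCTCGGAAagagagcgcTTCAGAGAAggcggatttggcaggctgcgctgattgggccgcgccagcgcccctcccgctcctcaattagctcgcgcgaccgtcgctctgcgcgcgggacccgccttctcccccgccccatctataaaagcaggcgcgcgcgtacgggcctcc
Mpeg1, chr19:12460520-12460769, plus strand: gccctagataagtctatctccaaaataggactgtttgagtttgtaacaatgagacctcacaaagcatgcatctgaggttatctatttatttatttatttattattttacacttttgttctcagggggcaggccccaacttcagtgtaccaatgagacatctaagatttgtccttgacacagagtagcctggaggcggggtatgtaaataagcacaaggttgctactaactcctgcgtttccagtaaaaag
Ly86, chr13:37345095-37345344, plus strand: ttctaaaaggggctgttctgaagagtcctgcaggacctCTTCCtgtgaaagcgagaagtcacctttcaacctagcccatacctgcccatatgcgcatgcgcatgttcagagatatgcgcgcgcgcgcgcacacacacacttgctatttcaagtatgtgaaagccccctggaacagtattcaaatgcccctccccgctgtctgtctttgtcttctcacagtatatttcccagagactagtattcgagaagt
Aoah, chr13:20793863-20794112, plus strand: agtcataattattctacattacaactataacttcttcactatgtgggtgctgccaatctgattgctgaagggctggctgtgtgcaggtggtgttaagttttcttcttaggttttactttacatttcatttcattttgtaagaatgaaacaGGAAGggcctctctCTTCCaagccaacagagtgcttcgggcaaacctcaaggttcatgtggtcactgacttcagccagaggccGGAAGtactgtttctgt
Mefv, chr16:3718125-3718374, minus strand: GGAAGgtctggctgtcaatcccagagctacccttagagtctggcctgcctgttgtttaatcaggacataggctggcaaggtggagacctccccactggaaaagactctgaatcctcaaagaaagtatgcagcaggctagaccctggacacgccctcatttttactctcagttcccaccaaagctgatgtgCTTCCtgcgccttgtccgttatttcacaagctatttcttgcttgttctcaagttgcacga
Ccr2, chr9:124101933-124102182, plus strand: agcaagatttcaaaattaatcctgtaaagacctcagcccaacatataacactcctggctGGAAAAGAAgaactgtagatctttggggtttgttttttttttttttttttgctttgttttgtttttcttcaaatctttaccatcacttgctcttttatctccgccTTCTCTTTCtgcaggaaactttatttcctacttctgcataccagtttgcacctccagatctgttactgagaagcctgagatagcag
Mpeg1 and Cx3cr1 held no match to any of the 5 motifs in this window, nor did the second Irf8 start. Ly86 held 1 ETS core, Mefv 2 and Aoah 3. Ccr2 held 1 ETS-IRF composite core and 1 ISRE core. A match or its absence describes these letters and shows no binding.

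Irf8 was the transcription factor of the group. Its level was 4.66 in FL WT and 3.96 in FL KO. Among the bone marrow arrays WT 2 was at 4.57, and WT 1 at 7.18 in the scan and 5.80 in the table. The BM KO arrays were at 1.22 and 0.87. Both KO values from bone marrow lay below all other arrays, and the FL KO array lay close to FL WT and BM WT 2. The Irf8 difference, KO minus WT, was -0.69 in fetal liver and -3.71 in bone marrow pair 2, which is 13.1-fold lower. In bone marrow pair 1 it was -5.96 in the scans and -4.57 in the table.

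Csf1r encodes the receptor for CSF1, the growth factor of the macrophage lineage. It was at 6.28 in FL WT and 6.04 in FL KO, a difference of -0.24. BM WT was at 4.48 in replicate 2 and at 7.97 (scan) or 5.40 (table) in replicate 1, and BM KO at 2.18 and 1.69. Csf1r was thus low on both BM KO arrays and nowhere else. Its bone marrow differences were -2.79 in pair 2 (6.91-fold lower), and -5.79 (scans) or -3.22 (table) in pair 1. Of the other Csf1r probes, A_52_P602091 gave -3.37 in pair 2 and A_55_P2025073 gave -0.44, so the 3 probes disagreed on the size.

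Cx3cr1 encodes the receptor for fractalkine (Cx3cl1), carried by patrolling monocytes and tissue macrophages. It was at 2.66 in FL WT, 2.14 in FL KO and 2.03 in BM WT 2. In BM WT 1 it was at 3.89 (scan) or 2.82 (table), and the KO arrays were at 0.86 and 0.07. The bone marrow groups did not overlap in either source. The difference was -1.96 in pair 2 and also -1.96 in pair 1 of the table, against -3.03 in the scans of pair 1 and -0.52 in fetal liver. The second Cx3cr1 probe gave -1.85 in pair 2.

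Ccr2 encodes the chemokine receptor by which monocytes leave the bone marrow towards Ccl2. Its level was 0.02 in FL WT and 0.57 in FL KO. The bone marrow arrays of replicate 2 were at 2.25 in WT and 2.24 in KO. Replicate 1 was at 4.10 (scan) or 2.93 (table) in WT and at 3.63 in KO. WT and KO overlapped in bone marrow, and all bone marrow arrays lay above both fetal liver arrays. The pair differences were 0.55 in fetal liver, -0.01 in pair 2, and -0.47 (scans) or 0.70 (table) in pair 1.

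Clec10a encodes a galactose-binding C-type lectin of dendritic cells and macrophages. It was at -1.91 in FL WT and was not well above background in FL KO (-3.88), where it was at least 2.63-fold lower. BM WT was at 2.25 in replicate 2 and at 3.29 (scan) or 2.81 (table) in replicate 1, and BM KO at 2.06 and 0.65. The fetal liver arrays were the low ones for this gene, and the bone marrow genotypes differed by less than the tissues. The KO minus WT difference was -1.60 in pair 2, and -1.23 (scans) or -0.75 (table) in pair 1.

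Mpeg1 encodes perforin-2, a pore-forming protein of macrophages that acts on engulfed bacteria. It was at 2.05 in FL WT and 1.44 in FL KO. In bone marrow it was at 3.33 in WT 2, at 6.82 (scan) or 4.14 (table) in WT 1, and at -0.89 and -1.17 in KO. The BM KO arrays were the lowest of the 6. The difference was -0.61 in fetal liver, -4.49 in pair 2 (22.6-fold lower), and -7.71 (scans) or -5.03 (table) in pair 1. The second Mpeg1 probe gave -4.03 in pair 2 and -4.31 in the table's pair 1, with 3 arrays above background.

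Ly86 encodes MD-1, the partner that carries the Toll-like protein CD180 to the cell surface. It was at 3.10 in FL WT and 1.90 in FL KO. BM WT was at 3.17 in replicate 2 and at 6.71 (scan) or 4.53 (table) in replicate 1, and BM KO at -1.25 and -2.59. The BM KO arrays again lay below all others. The difference was -1.20 in fetal liver, -5.76 in pair 2 (54.2-fold lower) and -5.79 in pair 1 of the table. The scans of pair 1 gave -7.96.

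Aoah encodes acyloxyacyl hydrolase, which removes acyl chains from lipopolysaccharide and so inactivates it. It was at 1.64 in FL WT, 0.96 in FL KO and -0.96 in BM WT 2. BM WT 1 was at -1.76 in the scan and -0.62 in the table. Both BM KO arrays were not well above background, at -5.31 and -7.11. The fetal liver arrays were thus highest, BM WT lower and BM KO lowest. Aoah was at least 8.64-fold lower in BM KO than in WT in the scans and at least 12.8-fold lower in the table. The second Aoah probe gave -3.08 in pair 2 and 0.21 in fetal liver, and was above background on 3 arrays.

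Mefv encodes pyrin, an inflammasome sensor of myeloid cells. It was at 0.49 in FL WT and -0.56 in FL KO. BM WT was at 1.73 in replicate 2 and at 1.76 (scan) or 2.89 (table) in replicate 1. BM KO was at -2.36 in replicate 1 and not well above background in replicate 2 (-5.92). Both BM KO arrays were low, but further apart than for any other of the 9 genes. The difference was -1.05 in fetal liver, and -4.12 (scans) or -5.25 (table) in pair 1. In pair 2 the values of this probe differed by -7.65, of which only a drop of at least 100.2-fold was measured, set against the lowest signal well above background on the KO array. The second Mefv probe, matched to another RefSeq transcript, gave -3.26 in pair 2. That probe was well above background on the KO array of pair 2, at -4.39, so Mefv was detected there.

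**Figure D1:**
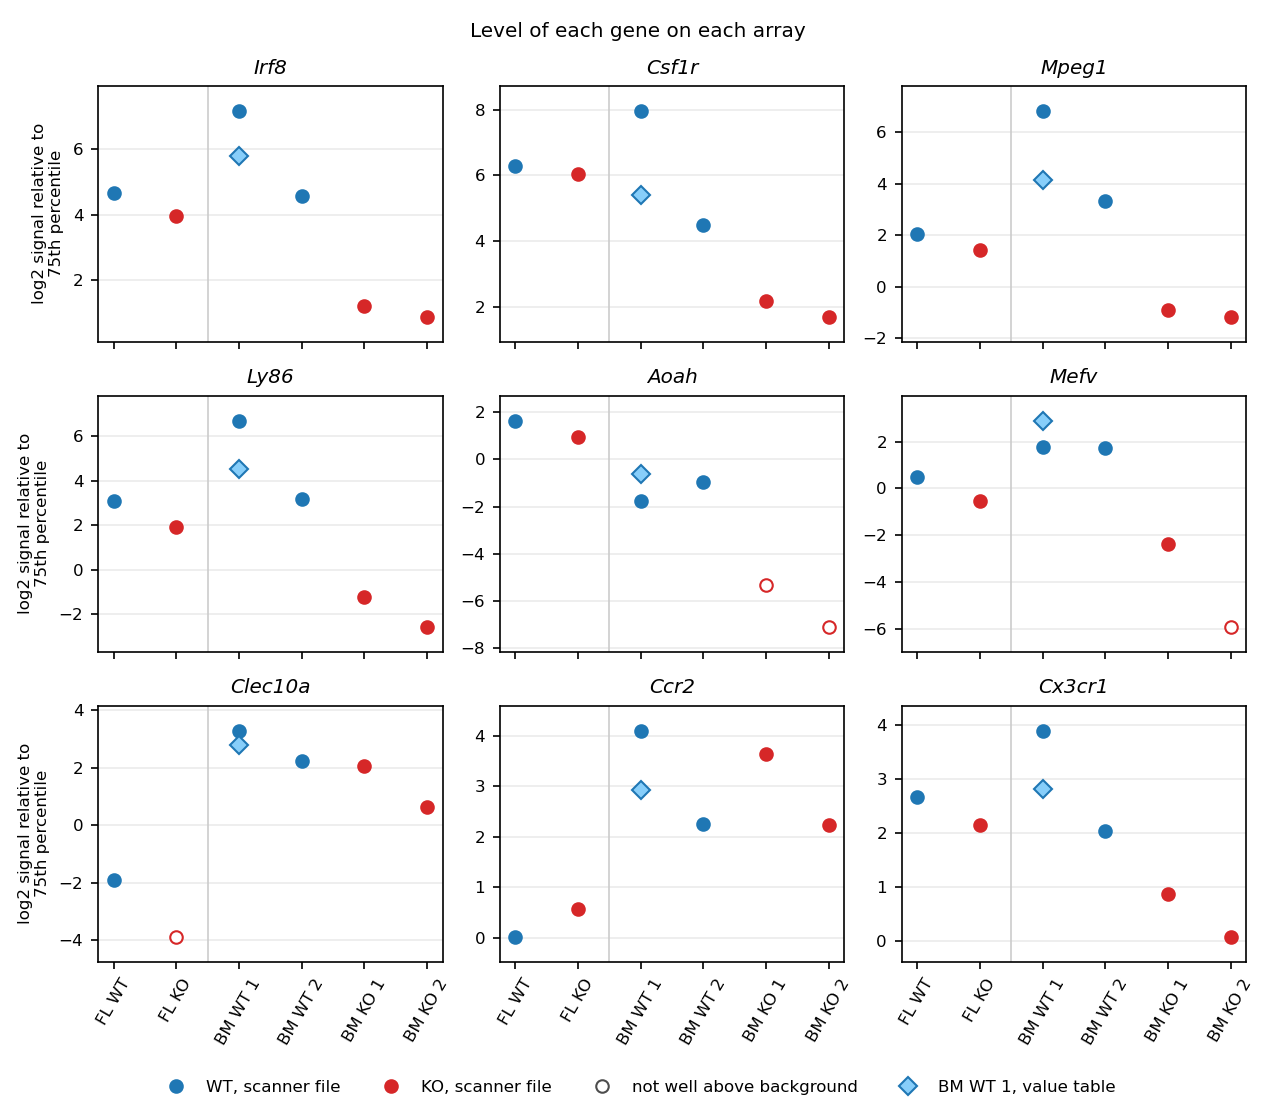
Level of each of the 9 genes on each array, as log2 signal relative to the array's 75th percentile (y axis), with WT in blue, KO in red, open circles for probes not well above background and a diamond for the table value of BM WT 1. For Irf8 the BM KO arrays sit at 1.22 and 0.87 and all other arrays between 3.96 and 7.18.

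The differences were set against those of all genes measured well above background on both arrays of a pair. In bone marrow pair 2, which does not use BM WT 1, 2 of 13482 such genes were lower than Ly86, 11 than Mpeg1, 24 than Irf8, 47 than Csf1r, 115 than Cx3cr1 and 186 than Clec10a. Ccr2 lay in the middle, with 7870 genes lower, and Mefv and Aoah have no place there because their KO side was dim. In pair 1 of the table, no gene of 12022 was lower than Ly86, 1 was lower than Mefv, 2 than Mpeg1, 7 than Irf8, 34 than Csf1r and 136 than Cx3cr1. In both bone marrow pairs, 7 of the 9 genes were at least 2-fold lower in the table and 8 of 9 in the scans, against 2.85% and 2.05% of all genes tested. The median difference of the 9 genes was -3.71 in pair 2, and -4.57 (table) or -4.12 (scans) in pair 1. With the dim sides set to their bound, only the table's pair 1 moved, to -3.40. Over all genes these medians were -0.09, 0.01 and 0.19.

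**Figure D2:**
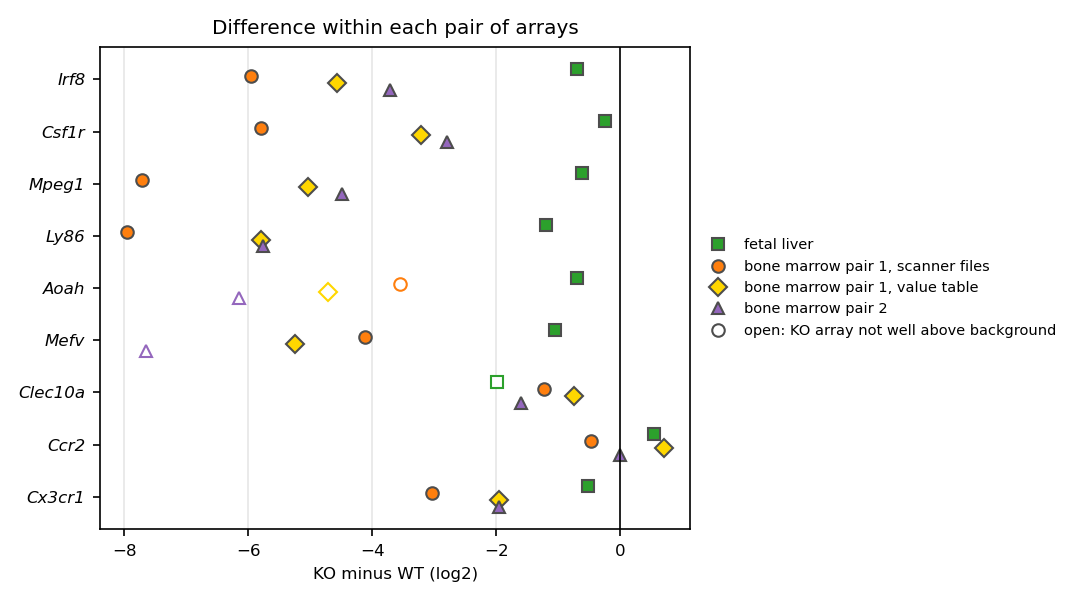
KO minus WT difference (log2, x axis) of each gene within the fetal liver pair, bone marrow pair 1 from the scans and from the value table, and bone marrow pair 2. Irf8 is at -0.69 in fetal liver and between -5.96 and -3.71 in bone marrow, and Ccr2 stays between -0.47 and 0.70. Open symbols mark a KO array not well above background, where the size is not exact.

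The comparison of BM KO with WT asks what loss of Tif1b does in adult KSL cells, over 2 arrays of each genotype. In the authors' table, 5 of the 9 genes fell, at an adjusted p under 0.05 over all genes (limma), against 0.399% of 12783 genes that passed in the lower direction. Mpeg1 differed by -4.76 ± 0.35 (SE, n = 2 and 2, adjusted p = 0.0156) and Ly86 by -5.77 ± 0.63 (adjusted p = 0.0280). Irf8 differed by -4.14 ± 0.45, a 17.6-fold drop (adjusted p = 0.0291). Aoah differed by -5.45 ± 0.61 (adjusted p = 0.0319), with both KO arrays not well above background, and Csf1r by -3.00 ± 0.40, an 8.02-fold drop (adjusted p = 0.0490). Aoah and Mefv entered the test only through the WT arrays, so neither their fitted sizes nor their p-values are exact. The count of 5 includes Aoah, whose call rests on KO values near background. A filter on every array left 7 of the 9 genes in the test, of which 3 passed, and the count over all genes is given at the end. The other 4 genes did not pass. Mefv differed by -6.43 ± 1.15 (adjusted p = 0.0946), Cx3cr1 by -1.96 ± 0.41 (adjusted p = 0.144), Clec10a by -1.17 ± 0.52 (adjusted p = 0.512) and Ccr2 by 0.34 ± 0.53 (adjusted p = 0.978). In these bulk samples, fewer cells of a type and less RNA per cell cannot be told apart.

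On the scans the same test called none of the 9 genes and none of 13011 genes (0.00% lower), while 548 genes had an unadjusted p under 0.05. The differences there were of the same sign for all 9 genes except Ccr2, with wider errors. Irf8 was at -4.83 ± 0.91 (adjusted p = 0.950), Mpeg1 at -6.10 ± 1.17 (adjusted p = 0.950), Csf1r at -4.29 ± 1.18 (adjusted p = 1) and Cx3cr1 at -2.49 ± 0.74 (adjusted p = 1). Ly86, at -6.86 ± 1.26 (adjusted p = 0.942), had the lowest difference of all genes tested. Mefv was at -5.88 ± 1.19 (adjusted p = 0.963) and Aoah at -4.85 ± 0.72 (adjusted p = 0.680).

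Without the array labelled BM WT 1, the scans called 6 of the 9 genes lower, against 0.953% of 13011 genes. The lone WT array is then assumed to vary like the KO arrays, and 1 degree of freedom among the arrays carries the test. Aoah and Mefv entered here, too, only through the WT arrays, so neither their sizes nor their p-values are exact. The count above includes both. Irf8 was at -3.53 ± 0.52 (adjusted p = 2.19e-05), Csf1r at -2.54 ± 0.52 (adjusted p = 0.00247) and Mpeg1 at -4.36 ± 0.52 (adjusted p = 4.56e-07). Ly86 (-5.09 ± 0.55), Aoah (-5.25 ± 0.58) and Mefv (-5.87 ± 0.74) also passed. Cx3cr1 was at -1.57 ± 0.53 (adjusted p = 0.183), Clec10a at -0.89 ± 0.56 and Ccr2 at 0.68 ± 0.56 (adjusted p = 1 for both).

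With the slide as a block, which in bone marrow is also the replicate number, the table called 7 of the 9 genes lower, against 3.72% of all genes. This fit has 1 degree of freedom among the arrays, from how far the pair differences lie apart. Cx3cr1 (-1.96 ± 0.16, adjusted p = 0.00604) and Mefv (-6.43 ± 0.55, adjusted p = 0.00652) joined the 5 genes above. Mefv and Aoah again entered only through the WT arrays, so neither their sizes nor their p-values are exact. The count above includes both. Clec10a stayed outside, at an adjusted p of 0.0592, as did Ccr2, at 0.435. On the scans the block called none of the 9 genes, and their lowest adjusted p was 0.477, for Ly86. The 5 calls of the table without the block were themselves lost when genes below background were kept in the test, with 0 of the 9 genes called.

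**Figure D3:**
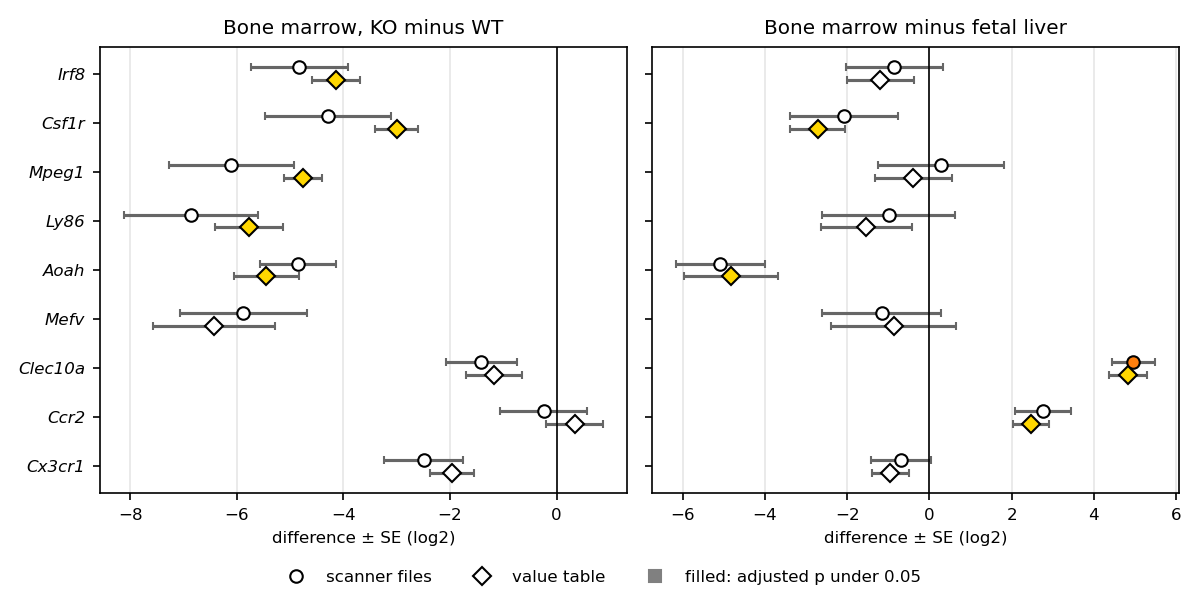
Fitted differences (log2, x axis) with their standard errors for the 9 genes, from the scans (circles) and the value table (diamonds), for BM KO minus WT (left, 2 arrays each) and bone marrow minus fetal liver (right, 4 and 2 arrays). Filled symbols passed an adjusted p of 0.05, as Irf8 did on the left in the table (-4.14) and Clec10a on the right in both sources (4.96 and 4.84).

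Fetal liver had 1 array of each genotype, and its pair is described here without a test of its own. In it 3 of the 9 genes were at least 2-fold lower in KO, namely Clec10a, Ly86 and Mefv, against 4.42% of all genes. Ly86 was 2.29-fold lower and Mefv 2.08-fold lower. Irf8 was 1.62-fold lower, Aoah 1.61-fold, Mpeg1 1.53-fold and Cx3cr1 1.44-fold, while Ccr2 was the only one of the 9 that was higher. Of 11711 genes well above background on both arrays, 152 were lower than Ly86, 215 than Mefv and 560 than Irf8. The median of the 9 genes was -0.69, against -0.07 over all genes, and Trim28 was -4.30 in the same pair. The normexp background correction left 1 of the 9 genes at least 2-fold lower.

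The difference between the KO effects of the 2 tissues was tested directly, with the lone fetal liver arrays assumed to vary like the bone marrow arrays. Aoah was not well above background on either BM KO array, so its sizes and p-values in these fits are not exact. None of the 9 genes and none of all genes passed, in the table (0.00% of 13499, with 950 at an unadjusted p under 0.05) or in the scans (0.00% of 13661, with 351). In the table Mpeg1 differed by -4.15 ± 0.63 between the tissues (adjusted p = 0.234), Aoah by -4.77 ± 1.09 (adjusted p = 0.314), Irf8 by -3.45 ± 0.80 (adjusted p = 0.321) and Ly86 by -4.58 ± 1.11 (adjusted p = 0.333). Without the array labelled BM WT 1, the scans called 3 of the 9 genes, each with the deeper drop in bone marrow, against 0.593% of all genes in that direction. These were Mpeg1 (-3.74 ± 0.80, adjusted p = 0.0227), Aoah (-4.56 ± 0.98, adjusted p = 0.0246) and Ly86 (-3.89 ± 0.90, adjusted p = 0.0382). Irf8 was at -2.84 ± 0.80 (adjusted p = 0.116). Leaving any 1 of the 4 bone marrow arrays out, of the scans or of the table, gives a bone marrow group of 1 array. Only 1 degree of freedom, between the 2 bone marrow arrays of the other genotype, then carries the test. The counts of those fits are given at the end, beside those over all genes.

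The comparison of bone marrow with fetal liver, with genotype held, called 1 of the 9 genes higher in the scans and 2 in the table. Clec10a was higher in bone marrow in both sources, by 4.96 ± 0.53 in the scans (adjusted p = 0.0280) and by 4.84 ± 0.46 in the table (adjusted p = 0.00458). FL KO, which enters the fetal liver mean, was not well above background for Clec10a, so these sizes are not exact. Of all genes, 0.871% passed in the higher direction in the scans and 8.92% in the table. Clec10a was higher within each genotype too. It lay 4.15 above fetal liver in WT 2, and 5.94 and 4.53 above in the KO replicates, where the fetal liver side was not well above background. Ccr2 was higher in bone marrow by 2.47 ± 0.44 in the table (5.55-fold, adjusted p = 0.0188), and by 2.76 ± 0.68 in the scans, which did not pass (adjusted p = 0.106).

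In the lower direction, 2 of the 9 genes passed in the table, Aoah (-4.82 ± 1.14, adjusted p = 0.0368) and Csf1r (-2.72 ± 0.67, adjusted p = 0.0405), against 14.0% of all genes. Because Aoah was not well above background on either BM KO array, its sizes and p-values here are not exact. None of the 9 passed in this direction in the scans, against 1.23% of all genes, with Aoah at -5.08 ± 1.08 (adjusted p = 0.0857) and Csf1r at -2.07 ± 1.31 (adjusted p = 0.349). With the slide as a random block, Clec10a alone of the 9 genes passed in either source, against 1.02% (scans) and 2.75% (table) of all genes in the higher direction. Ccr2 (2.47 ± 0.49) then missed the threshold in the table, as did Aoah (adjusted p = 0.147) and Csf1r (adjusted p = 0.153). Without the array labelled BM WT 1, Clec10a, Ccr2 (2.31 ± 0.47, adjusted p = 0.0433) and Csf1r (-3.11 ± 0.58, adjusted p = 0.0367) passed in the scans, against 5.64% of all genes higher and 7.66% lower.

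Irf8, Mpeg1, Ly86, Mefv and Cx3cr1 did not pass between the tissues in either source, and their fitted tissue difference averaged unlike genotypes. Irf8 in BM WT 2 was -0.08 from FL WT, while the BM KO arrays were -2.74 and -3.10 from FL KO. Ly86 was at 0.07 in WT 2 against -3.15 and -4.49 in KO. Mpeg1 was at 1.28 in WT 2 against -2.32 and -2.60 in KO, and Mefv at 1.23 against -1.80 and -5.36. Csf1r was lower in bone marrow in both genotypes when WT 1 is left out, at -1.79 in WT and at -3.86 and -4.34 in KO. Aoah was lower on all bone marrow arrays, by 2.61 in WT 2. These are the same 6 arrays seen from the other side, and they add no independent test.

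The transcription factors that work with or beside IRF8 had smaller differences in the table. Of 25 such genes, 23 were tested in bone marrow in the table, none passed, 17 were lower and the median difference was -0.26, against -0.05 over all genes. The scans had 24 tested, of which none passed, and the median was -0.56, against 0.06. Spi1, encoding PU.1, was at -0.87 in pair 2 and -0.59 in pair 1 of the table (fitted -0.73 ± 0.36, adjusted p = 0.582). Irf1, Irf2, Batf, Runx1, Ikzf1, Etv6, Bcl6, Myb and Tcf4 stayed within 0.5 of 0 in pair 2 and, except Etv6 at -0.50, within that distance in pair 1 of the table. The scans of pair 1 lay further out, with Tcf4 at -1.87, Bcl6 at -1.73, Myb at 1.04, Irf2 at -0.89 and Irf1 at -0.80. Irf4, the closest relative of Irf8, was 2.56 higher in pair 2. In pair 1 it was not well above background in KO, with -5.61 against 2.39 in the scan of WT 1 and -4.19 in its table column. Klf4, which acts in monocyte formation, was at 0.14 in pair 2 and -1.15 in pair 1 of the table.

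In the table the C/EBP genes were lower in both pairs. Cebpe, a factor of late granulocyte formation, was at -2.87 in pair 2 and -3.29 in pair 1 of the table (fitted -3.08 ± 0.86, adjusted p = 0.248). Cebpa, needed for the first granulocyte and monocyte progenitors, was at -2.52 and -1.14 (fitted -1.83 ± 0.58, adjusted p = 0.315). Cebpb was at -1.05 and -1.25 (fitted -1.15 ± 0.25, adjusted p = 0.151). In the scans of pair 1 Cebpe was at -2.75 and Cebpb at -0.63, while Cebpa was at 0.44, the opposite sign. With the slide block in the table, 5 of the 23 factors passed, all lower, namely Cebpa, Cebpb, Cebpe, Gfi1 and Zeb2, again against 3.72% of all genes. Gfi1, a transcriptional repressor that acts in granulocyte formation, was then at -1.07 ± 0.17. Zeb2, which acts in monocyte and dendritic formation, was at -0.99 ± 0.16. Egr1 and Egr2 were higher in pair 2, by 0.91 and 1.43, and lower in pair 1 of the table, by 0.68 and 0.87, against 1.74 and 0.01 in the scans. Batf3 and Zbtb46, factors of conventional dendritic cells, were at 0.36 and -0.19 in pair 2 and in pair 1 both were not well above background in KO. Id2 was at 0.07 in pair 2 and 0.03 in pair 1 of the table but at -3.39 in the scans, and Nr4a1, a factor of patrolling monocytes, at -0.35, -0.95 and -0.35. In FL KO the median of these factors was 0.05, with Spi1 at 0.56, Cebpa at 0.21, Cebpe at 0.48 and Zbtb46 lowest at -1.91.

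Between the tissues these factors split. Of 24 tested, the table called 7 lower and 2 higher in bone marrow, and the scans 1 lower and 1 higher. Of all genes the table called 14.0% lower and 8.92% higher, and the scans 1.23% and 0.871%. Both sources called Cebpe lower (-6.45 ± 0.98 in the scans, adjusted p = 0.0492) and Nr4a1 higher (4.82 ± 0.41, adjusted p = 0.0223). The table also called Id2, Batf3, Zbtb46, Gfi1, Cebpb and Ikzf1 lower, by between 1.25 (Ikzf1) and 3.37 (Batf3), and Tcf4, a factor of plasmacytoid dendritic cells, higher by 1.04. With the slide as a random block the table called Id2 and Ikzf1 lower and Nr4a1 higher, against 3.36% and 2.75% of all genes.

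Of 18 genes for ligands of these receptors and partners of the innate proteins, 16 were tested in bone marrow, none passed in either source, and the median difference was -0.21 in the table and 0.17 in the scans. Csf1, the ligand of Csf1r, was at 0.12 in pair 2 and -0.28 in pair 1 of the table. The second ligand, Il34, was at -0.76 and 0.28. Cx3cl1, the ligand of Cx3cr1, was at 0.35 and 0.49. Ccl2, a ligand of Ccr2, was at 0.19 and -2.39, while Ccl7 was above background on no array and Ccl12 on 1. Cd180, the partner of Ly86, was at 0.81 in pair 2 and 0.90 in pair 1 of the table (fitted 0.86 ± 0.26, adjusted p = 0.291), but was at -1.31 in the scans of pair 1. Tlr4 and Ly96, which together sense the lipopolysaccharide that AOAH inactivates, were at -0.06 and 0.55 in pair 2 and at -0.41 and 0.41 in pair 1 of the table. Pycard and Casp1, which act after pyrin in the inflammasome, were at -0.28 and -0.65 in pair 2, and the inflammasome products Il1b and Il18 at 1.56 and -0.25. Their values in pair 1 of the table were -0.09 for Pycard, -0.21 for Casp1, -0.13 for Il1b and -0.76 for Il18. In the scans of pair 1 these differed in places, with Csf1 at 0.65, Cx3cl1 at 2.04, Ccl2 at 0.39, Tlr4 at 1.02, Il1b at -0.92 and Il18 at 0.39.

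Of the growth factor receptors, Csf2ra was at -0.58 in pair 2, Csf2rb at 0.16 and Csf3r at -0.19. Flt3, the receptor that drives dendritic cell formation from progenitors, was at -1.97 in pair 2 and -1.75 in pair 1 of the table (fitted -1.86 ± 0.50, adjusted p = 0.236). Its ligand Flt3l was at 1.05 and 1.38 (fitted 1.22 ± 0.26, adjusted p = 0.144). With the slide block in the table Flt3 passed lower, and Flt3l and Cd180 higher, of the 16 genes, against 3.72% and 3.96% of all genes. The scans of pair 1 gave -3.11 for Flt3 and 0.85 for Flt3l. Flt3 was at -0.04 in FL KO and Flt3l at 0.05. Between the tissues the table called Ccl2 (3.61 ± 0.88), Il18 (1.80 ± 0.31) and Casp1 (1.79 ± 0.37) higher in bone marrow and Csf2ra lower (-1.03 ± 0.25), and the scans called none of the 16. Of all genes the table called 8.92% higher and 14.0% lower, and with the slide as a random block none of the 16 passed in either source.

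Of 56 genes on a wider list of monocyte and dendritic genes, 45 were tested in bone marrow in the table and none passed, 33 were lower and 12 higher, and the median was -0.48. Of 47 tested in the scans none passed, 45 were lower and the median was -1.86. In both bone marrow pairs, 11 of 45 were at least 2-fold lower in the table, 24.4% against 2.85% of all genes tested. These 11, named after their values were seen, were Adgre1, Ccl6, Ccl9, Cd14, F13a1, Fcer1g, Fcgr3, Fcgr4, Ms4a6c, Trem2 and Tyrobp. F13a1, a coagulation factor subunit of monocytes, was at -5.96 in pair 2 and -3.83 in pair 1 of the table. Cd14, the lipopolysaccharide co-receptor, was at -2.89 and -2.44, and Fcgr3, an Fc receptor, at -2.83 and -2.85. Tyrobp, an adaptor for activating receptors, was at -2.75 and -2.11. In the scans of pair 1 F13a1 was at -1.73, Cd14 at -4.17, Fcgr3 at -2.54 and Tyrobp at -3.80. Some others on the list were near 0 or higher in pair 2 and close to 0 or lower in pair 1 of the table. Itgam was at 0.06 and 0.11 and Lyz2 at 0.22 and 0.14. The antigen presentation genes were at 2.26 and -0.72 (Cd74) and at 0.33 and 0.09 (H2-Ab1). Others were lower in pair 2, such as Itgax (-1.88), Fcgr1 (-1.16), Ms4a6b (-1.12) and Clec9a (-3.38, not well above background in KO). Their values in pair 1 of the table were 0.03, 0.21, -0.28 and -0.39. Mrc1 was at 1.37 and 2.74, with a dim BM WT 1 side. Of 48 genes measured in pair 2, 15 were at least 2-fold lower and 3 at least 2-fold higher. These counts were 18 and 1 of 45 in pair 1 of the table. The scans of pair 1 had Cd74 at -7.38, H2-Ab1 at -3.72, Lyz2 at -1.01 and Itgam at 0.18. With the slide block in the table, 10 of the 45 passed lower and 1, Mrc1, higher, against 3.72% and 3.96% of all genes. In fetal liver the median of the list was 0.08.

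Lists of other cell types were read in the same bone marrow comparison. Of 14 neutrophil genes tested in the table, 4 passed, all lower, against 0.399% of all genes, with a median of -2.79. All 14 were lower in both pairs, against 5017 of 12783 genes tested. Fcnb, on the list but not tested in the table, was 1.69 higher in KO in pair 1 of the table and at -0.70 in pair 2. In the scans none of 15 passed, all 15 had a fitted difference below 0 and the median was -3.70. The summed signal of the 16 neutrophil genes with a probe, in multiples of the array's 75th percentile, was 2421 and 1251 in BM WT and 485 and 64.9 in KO in the table, and 14 and 13 of the 16 were above background in KO. The part of neutrophil genes in the results for the 9 genes was not tested. Of the 12 genes of KSL identity none passed and 10 were higher, with a median of 0.70, and all 12 were above background on the other 3 bone marrow arrays. B cell genes gave a median of 0.16, T and NK cell genes -0.36 (1 of 11 passed, lower), erythroid genes 1.46, megakaryocyte genes 0.90 and mast cell and basophil genes 2.06. In the scans no gene of these lists passed, and the medians were 2.52 for KSL identity, -2.88 for B cell genes, -3.62 for T and NK cell genes, 0.68 for erythroid, 4.12 for megakaryocyte and 1.74 for mast cell and basophil genes. All 12 B cell genes tested had a fitted difference below 0 there, but 10 of these 12 had opposite signs in the 2 pairs. The median of the B cell genes measured was -6.71 in pair 1 of the scans and 1.26, higher in KO, in pair 2. In pair 1 of the table it was -0.56. In the scan of BM WT 1 the summed B cell signal was 301 and in its table column 23.0, against 15.4 to 51.4 in the table over the other 3 bone marrow arrays. The summed signal of the 53 monocyte and dendritic genes with a probe was 3460 in that scan and 1235 in the table, against 770 to 846 in the other 3 bone marrow columns. On those 3 arrays Msr1, Xcr1, Clec12a, Clec4a2 and Cd209a were not well above background.

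**Figure D4:**
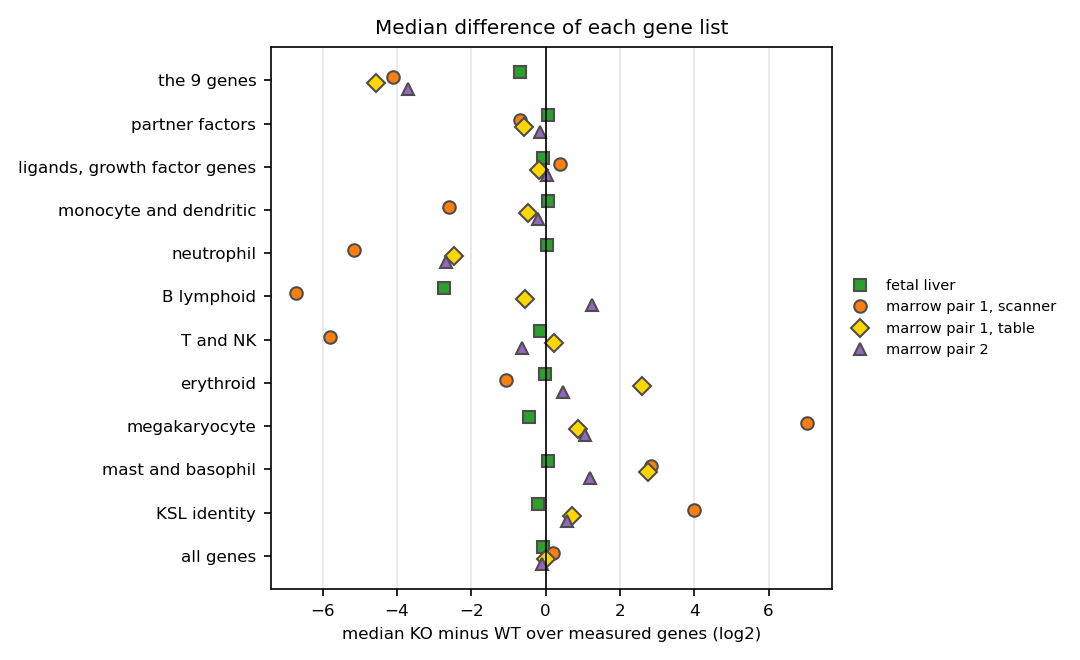
Median KO minus WT difference (log2, x axis) of the 9 genes, of each gene list and of all measured genes within each pair of arrays. The 9 genes sit at -4.57 to -3.71 in bone marrow, the neutrophil list at -2.68 in pair 2 and the list of partner factors at -0.15 in pair 2.

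The genes with the profile most like that of Irf8 were sought over the 5 arrays other than BM WT 1, by the Euclidean distance between levels centred on each gene's mean, among 11590 genes. This is a description, over samples that share tissue and genotype. Prtn3, a protease of granulocyte and monocyte progenitors, was closest at a distance of 0.77. It was at 6.70 and 6.09 in FL WT and KO, at 5.97 in BM WT 2 and at 3.56 and 2.48 in KO. Ttll9 (0.84), 0610040J01Rik (0.90), Tmem119 (0.93) and Mpeg1 (1.08) followed. In bone marrow pair 1, which the distance did not use in full, these genes were at -3.25 (Prtn3), -3.46 (Ttll9), -4.28 (0610040J01Rik) and -2.44 (Tmem119) in the table. Prtn3 was, in the scans, at 0.29 in that pair. Of the other genes described here, Ly86 ranked 36 by this distance, Csf1r 37, Cx3cr1 52, Mefv 1004, Aoah 10119 and Ccr2 11435.

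**Figure D5:**
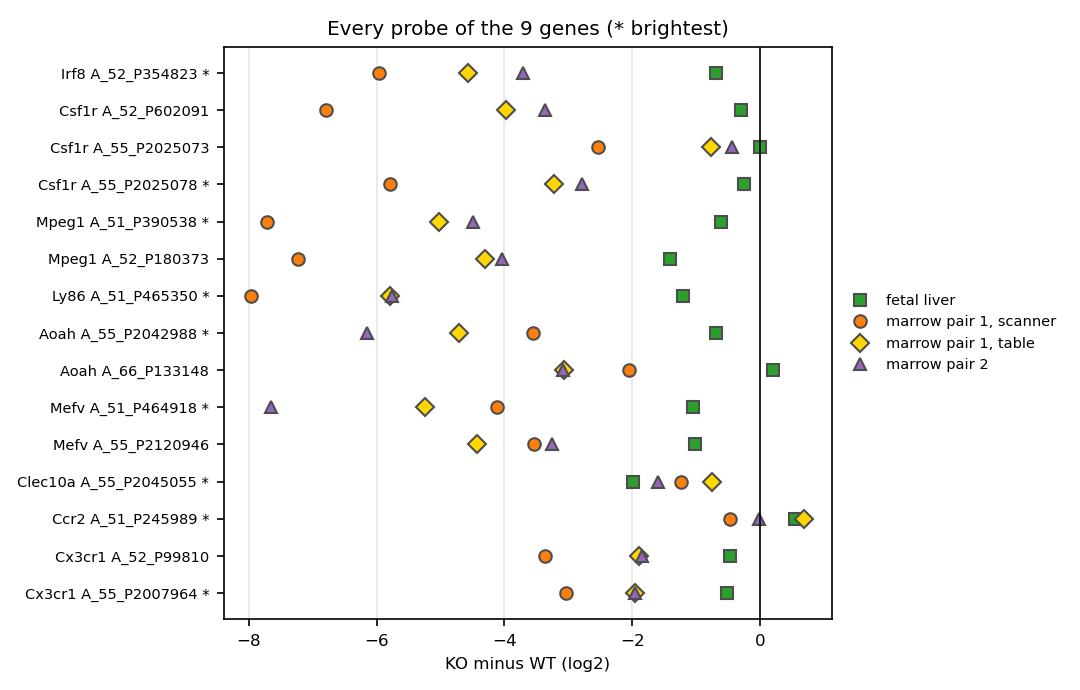
KO minus WT difference (log2, x axis) of each of the 15 probes of the 9 genes within each pair of arrays, with the brightest probe of a gene marked by a star. In bone marrow pair 2 the 3 Csf1r probes are at -3.37, -0.44 and -2.79, and both Cx3cr1 probes lie at -1.96 and -1.85.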

How the data were processed

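Sorted KSL cells gave total RNA, of which 10 ng was amplified and labelled with Cy3 for 1-colour Agilent arrays of 62976 spots, per the labels' protocols. The authors deposited scanner intensity files, written by Agilent's Feature Extraction software, version 10.7.1.1 per the submitters' processing notes. They also deposited a value table holding a linear ratio per probe, which for 5 arrays is the scanner signal divided by a constant close to the 75th percentile; neither its scale nor its direction is stated, and both were read from that match.

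The log2 of the processed signal minus each array's 75th percentile was used, without control and outlier-flagged spots, with repeated spots averaged. The table was treated alike. RefSeq accessions named 26762 of 55681 probes. A gene entered a test if some group had its probe well above background on every array. For the table's column of bone marrow WT replicate 1 a level of -3.7 replaced the flag (99.1% match on the KO array of its slide). Tests used limma 3.58.1 in R 4.3.3 (lmFit, eBayes, Benjamini-Hochberg over all genes, threshold 0.05), checked on simulated data. A bound sets the brighter mean against, per array, the higher of the dim probe and the lowest signal well above background. The number of arrays limits the precision.

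The members and lists were chosen with earlier results of these data known. Named were the 9 genes, the measured partner factors, ligands and partners (a few are not reported here), monocyte and dendritic genes that passed in bone marrow or, for the 3 largest, between tissues in both sources (none did), the 5 genes most like Irf8, and Trim28; other names were chosen after their values were seen. Alternatives were quantile normalization, normexp with an offset of 50 (on median signals, as the files used hold no mean signal), filters on dim probes, the mean of a gene's probes, each array left out, and slide blocks. The slide is a shared batch of each pair, per the file headers; deviations of same-numbered bone marrow arrays from their group means correlated at 0.05 (scanner files) and 0.56 (table) (2 pairs).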

Additional observations from a re-analysis of the deposited data

Results flagged for a closer look

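Ccr2 was flagged because the sign of its difference was not the same in the 2 tissues in the scanner files. It was 0.55 higher in KO in fetal liver (1 array of each genotype) and lower in both bone marrow pairs, by 0.47 and by 0.01. The 0.01 of pair 2 is almost no difference, and pair 1 uses the array labelled BM WT 1. The difference between the tissues was not tested by this count of directions; the limma contrast gave -0.79 ± 1.44 (adjusted p = 1). In the authors' table bone marrow pair 1 was at 0.70, so the directions were not opposite there.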

How the results depend on the processing

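Each array was left out in turn. For bone marrow KO against WT this gave 0 to 2222 genes and 0 to 8 of the 9 genes from the scanner files, and 344 to 659 genes and 6 to 8 of the 9 from the table. Without WT replicate 1 the scanner files called 258 genes and 6 of the 9, and without WT replicate 2 they called 2222 and 8. Between tissues the ranges were 0 to 1817 genes and 0 to 3 of the 9 (scanner files), and 780 to 2221 genes and 1 to 6 of the 9 (table). For the difference of KO effects they were 0 to 1390 genes and 0 to 7 of the 9 (scanner files), and 162 to 279 genes and 2 to 4 of the 9 (table).

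Signs turned only for values that had not passed. With each array left out, Ccr2 in bone marrow KO against WT ranged from -1.17 to 0.68 (scanner files) and -0.35 to 1.04 (table). Between tissues the ranges were -2.92 to 1.22 (scanner files) and -2.92 to 0.53 (table) for Irf8, -2.46 to 3.03 and -2.46 to 1.69 for Mpeg1, -3.82 to 1.84 and -3.82 to 0.76 for Ly86, -3.58 to 1.25 and -3.56 to 1.81 for Mefv, and -1.67 to 0.30 (scanner files) for Cx3cr1. In the difference of KO effects Ccr2 ranged from -1.72 to 0.13 (scanner files) and -0.90 to 0.49 (table) and Clec10a from -0.14 to 1.27 (scanner files), and Clec10a was at -0.82 with normexp.

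In the table, the bone marrow test without a filter called 11 genes and 0 of the 9, with a filter on every array 27 genes and 3 of 7, and with the replicate block 981 genes. Between tissues it called 1791 genes and 2 of the 9 without a filter. A filter on every array called 2 of 6 there, with the count over all genes not reported here. The slide as a random block called 825 of 13499 genes and 1 of the 9. Quantile normalization gave 89 genes for the difference of KO effects. From the scanner files between tissues, normexp called 182 of 13661 genes and 2 of the 9, and a filter on every array 227 of 11127 genes and 0 of 6. In fetal liver normexp left 1 gene at least 2-fold lower, against 3. The cause of these changes was not tested, except that the filters change how many genes are tested. The replicate block changed no call from the scanner files, where 0 genes passed in both fits.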
